A study of Saccharomyces cerevisiae with 8 samples.

Results

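Genes for breaking down allantoin, urea and arginine were followed in Saccharomyces cerevisiae grown with and without glycine. The 10 genes are DAL1, DAL2, DAL3, DAL4, DAL5, DAL7, DAL80, DUR3, CAR1 and CAR2. They were taken by gene symbol from the 5539 genes measured, and all 10 were on the array, each as 2 spots. Every array compared cells grown on minimal medium plus 10 mM glycine (channel 1) with cells of the same strain grown on minimal medium without it (channel 2), both at steady state up to early log phase. The deletion strains were bas1 (Y06015, 2 arrays), bas2 (Y03803, 2 arrays), gcn4 (Y00249, 1 array) and shm2 (Y02669, 1 array), and their parent BY4741 was on 2 arrays. Each deletion was represented by 1 strain of the deletion collection, and BY4741 itself lacks working HIS3, LEU2, MET17 and URA3 genes. Bas1 activates purine and one-carbon genes together with Bas2, which is also known as Pho2. Gcn4 is the main activator of amino acid biosynthesis, and Shm2 is the serine hydroxymethyltransferase of the cytosol.

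Yeast uses allantoin, urea and arginine as nitrogen sources when better ones such as ammonium or glutamine run short. Most genes of these pathways are held low on good nitrogen sources, a control known as nitrogen catabolite repression. In it the GATA factors Gln3 and Gat1 activate transcription, Dal80 and Gzf3 repress it, and Ure2 keeps Gln3 out of the nucleus. Permeases take up allantoin, allantoate and urea. The DAL enzymes split allantoin stepwise to urea and glyoxylate, and arginase (Car1) splits arginine to urea and ornithine.

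All values are log2 ratios between the channels of an array, averaged over the spots of a gene and set relative to the middle gene of that array, which stands at 0. The sources used here state neither the dyes nor the direction of the ratio. Negative values likely mean a higher level in the glycine culture, because GCV1, a subunit of the glycine cleavage system that glycine is known to induce, stood at -6.27 and -5.27 on the BY4741 arrays. It stood at -1.17 on bas1 replicate 1, -5.45 on bas2 replicate 1, -4.46 on gcn4 and -0.20 on shm2, and 2 arrays had no value for it. The other checks, GCV2 and GCV3 of the same system and SHM2, were below 0 on every BY4741, bas2 and gcn4 array. In BY4741 they stood at -1.65 and -0.64, -2.76 and -2.73, and -3.08 and -1.47. In bas1 SHM2 was at 1.41 and 0.79 and GCV2 at 0.78 and -0.10. GCV3 was at -0.70 on bas1 replicate 1 and had no value on replicate 2. Whether every array runs the same way is unsettled, so every sign below stands as deposited. Over spots, bas1 replicate 1 correlated at r = -0.304 with BY4741 replicate 1. With BY4741 replicate 3 it correlated at r = 0.224 and with bas2 replicate 1 at r = 0.577. For bas1 replicate 2, r was -0.243 and -0.029 with BY4741 replicates 1 and 3, and 0.502 with bas2 replicate 2. A ratio within a strain holds no expression level, so the ratios of the deleted genes and of mating-type genes could not settle the strain labels. GCN4 had a value on every array except gcn4. The other deleted genes had values in their own deletion strains. BAS1 was at -0.69 and -0.39 in bas1, PHO2 at -1.04 and -0.16 in bas2 and SHM2 at -0.24 on shm2.

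The arrays differed in quality and in spread. Between 45 and 752 of 12800 spots had no value on 6 arrays, against 5465 on bas1 replicate 2 and 2302 on bas2 replicate 2. The SD over genes was widest on bas1 replicate 2, at 2.07, and narrowest on BY4741 replicate 3, at 0.379. Across genes, gcn4 and BY4741 replicate 1 correlated at r = 0.64, above the r = 0.39 between the BY4741 arrays. The same-numbered bas1 and bas2 arrays correlated at r = 0.63 for replicate 1 and 0.49 for replicate 2. Both lay above the r = 0.08 of the bas1 pair and the r = 0.16 of the bas2 pair. For bas2 replicate 1 the title and description name bas2 but the source name is BY4741, and the title of BY4741 replicate 3 also names zap1. Results that rest on these arrays are therefore given array by array.

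Values were present for 71 of the 80 gene and array combinations, and CAR1, CAR2 and DUR3 alone had a value on all 8 arrays. The missing values lay on bas1 replicate 2 (4 genes), bas2 replicate 2 (3 genes) and gcn4 (2 genes). Of the 69 values with both spots, 3 had spots more than 1 apart on the log2 scale. These were DAL1 on shm2, with spots at -3.86 and 0.04, and DAL4 on bas2 replicate 2, at 3.66 and 1.34, and on shm2, at -1.46 and -0.12. Another 2 values rested on 1 spot, namely DAL2 on bas2 replicate 2 and DAL80 on bas1 replicate 2. The median gap between the spots of these genes was 0.281 on shm2 and 0.0373 on BY4741 replicate 3, against 0.152 and 0.0486 for all genes on the same arrays.

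**Figure D1:**
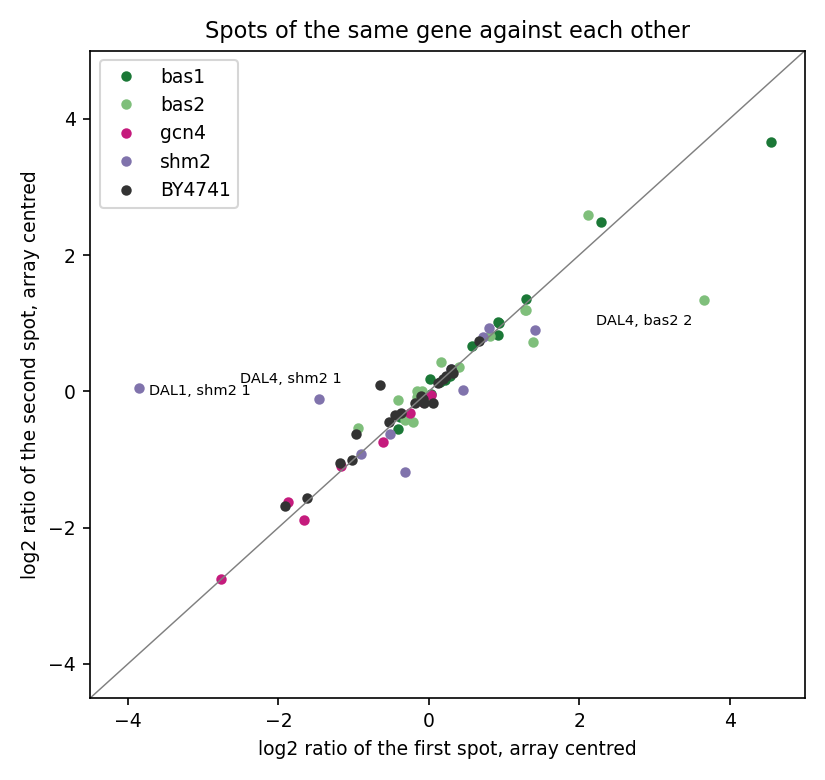
Log2 ratio of the first spot (horizontal axis) against that of the second spot (vertical axis) for each of the 10 genes on each array, 69 points coloured by strain, with the line of equality. The 3 labelled points have spots more than 1 apart, and the spots of all other points differ by less than that.

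The 10 genes did not share a sign across the arrays. In the deletion strains, their median was 0.20 and 1.68 on bas1 replicates 1 and 2, over 10 and 6 genes with a value. It was 0.13 and 0.81 on bas2 replicates 1 and 2 (10 and 7 genes), -0.90 on gcn4 (8 genes) and -0.16 on shm2 (10 genes). These medians are therefore partly over different genes. In BY4741 the median was -0.64 on replicate 1 and 0.03 on replicate 3. On gcn4 all 8 genes with a value were below 0, against 50% of all genes, and on BY4741 replicate 1 there were 9 of 10 below 0. On BY4741 replicate 3 and on shm2, 5 genes were above and 5 below. On both arrays of a strain, 3 of 6 genes were above 0 in bas1 (CAR1, CAR2 and DAL5, against 35.7% of all genes), 2 of 7 in bas2 (CAR1 and DAL2, 31.4%) and 1 of 10 in BY4741 (CAR1, 32.1%). Below 0 on both were 0 of 6 in bas1 (25.3%), 2 of 7 in bas2 (CAR2 and DUR3, 29.1%) and 5 of 10 in BY4741 (DAL3, DAL4, DAL5, DAL80 and DUR3, 32.2%). The median over all genes is 0 on every array by construction.

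**Figure D2:**
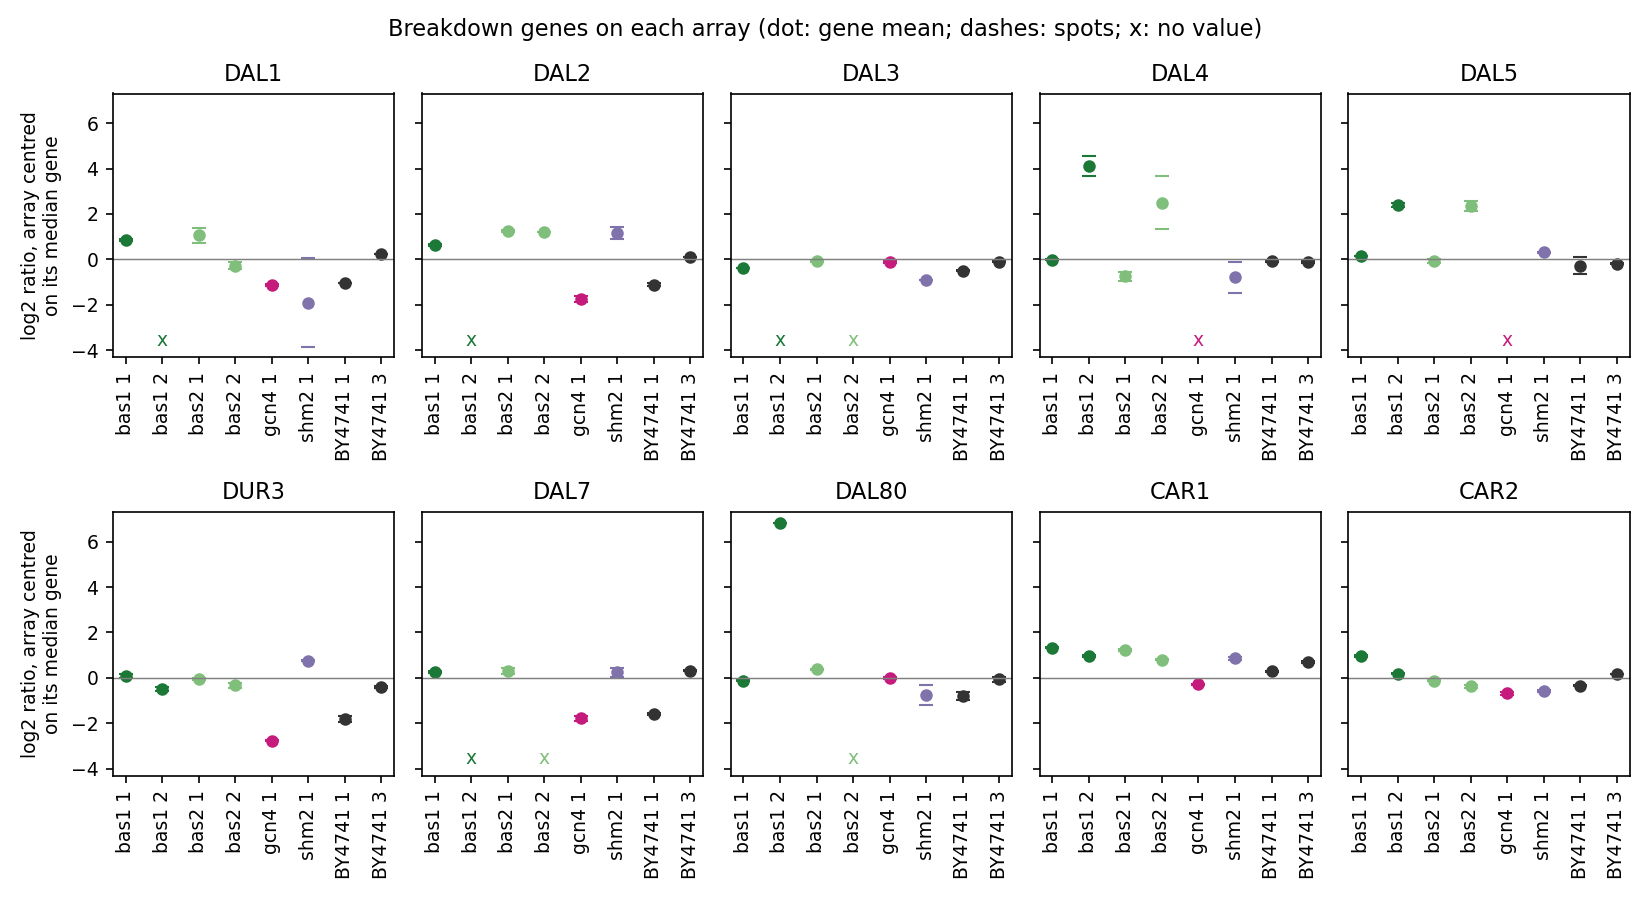
Centred log2 ratio (vertical axis) of each gene on each of the 8 arrays (horizontal axis, strain and replicate), with the gene mean as a dot, its spots as dashes and a cross where there was no value. CAR1 lies above 0 on 7 of 8 arrays, DUR3 is lowest on gcn4 and BY4741 replicate 1, and DAL4, DAL5 and DAL80 have their highest values on the second bas1 or bas2 array.

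DUR3 (YHL016C), the urea permease, had the widest separation between arrays among the genes measured on all of them. It was at 0.10 and -0.48 in bas1, -0.04 and -0.33 in bas2, -2.76 on gcn4 and 0.77 on shm2, against -1.80 and -0.40 in BY4741. The gcn4 value and that of BY4741 replicate 1 fell at the 2.18th and 2.30th percentile of their arrays, and even the smaller BY4741 value was at the 9.03rd percentile of its tight array. Both spots agreed on each array, with gaps of 0.01 on gcn4 and 0.23 on BY4741 replicate 1. The shm2 value, at the 90.3rd percentile, lay above both BY4741 values, and the gcn4 value lay below both. The BY4741 mean was -1.10 ± 0.42 (SE of the limma fit, n = 2), with an adjusted p of 0.849 from limma. That fit pools the spread within bas1, bas2 and BY4741, so the SE is not that of the BY4741 arrays alone.

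DAL4 (YIR028W), the allantoin permease, stood at -0.01 and 4.11 in bas1, -0.74 and 2.50 in bas2 and -0.79 on shm2, against -0.09 and -0.12 in BY4741. DAL5 (YJR152W), which imports allantoate and ureidosuccinate, stood at 0.14 and 2.39 in bas1, -0.08 and 2.35 in bas2 and 0.32 on shm2, against -0.28 and -0.18 in BY4741. Neither had a value on gcn4. For both permeases the high values came from the second bas1 and bas2 arrays, those with the most missing spots, and the first arrays of the same strains stayed within 0.74 of the middle gene. At DAL4 the wide spread of bas2 replicate 2 reached the level of single spots, as given above. Whether missing spots play a part in these values was not tested.

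Of the allantoin enzymes, DAL1 (YIR027C) encodes allantoinase, which opens the ring of allantoin. It stood at 0.87 on bas1 replicate 1, 1.06 and -0.27 in bas2, -1.13 on gcn4 and -1.91 on shm2, against -1.02 and 0.23 in BY4741. The shm2 value is the mean of the discordant spots, of which 1 lies near 0. DAL2 (YIR029W), allantoicase, stood at 0.62 on bas1 replicate 1, 1.24 and 1.22 in bas2, -1.75 on gcn4 and 1.16 on shm2, against -1.11 and 0.12 in BY4741. Both bas2 arrays and the shm2 array lay above both BY4741 arrays at DAL2, and gcn4 lay below them. Without bas2 replicate 1, whose labels disagree, the bas2 value of DAL2 was 1.22, on 1 spot.

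DAL7 (YIR031C) encodes a malate synthase, which uses the glyoxylate released from allantoin. It stood at 0.26 on bas1 replicate 1, 0.30 on bas2 replicate 1, -1.77 on gcn4 and 0.24 on shm2, against -1.59 and 0.31 in BY4741. Its paralogue MLS1, named here because the coding sequences are similar, stood at -1.05, -0.95, -1.55 and -0.38 on the same deletion arrays, against -0.37 and -0.66 in BY4741. Cross-hybridisation between them was not tested. DAL3 (YIR032C), ureidoglycolate lyase, had no value on the second bas1 and bas2 arrays, where DAL4 and DAL5 were highest. Its 6 values lay between -0.91 on shm2 and -0.08 on bas2 replicate 1. They were all below 0, whereas without centring 3 of the 6 were above 0.

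DAL1, DAL2, DAL7 and DUR3 were thus at -1 or lower on both gcn4 and BY4741 replicate 1. These are 4 of the 8 genes with a value on both arrays, against 6.25% of all genes, and they were picked out after their values were seen. On bas1 replicate 1, by contrast, 0 of 10 genes were at -1 or lower (11.1%) and CAR1 alone was at 1 or higher (7.39%). On BY4741 replicate 3 the enzymes DAL1, DAL2 and DAL7 were above 0, so the replicates of the parent strain pointed opposite ways for them. The 2 arrays that share the low values also correlate across all genes, and the part of that likeness in these values was not tested.

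DAL80 (YKR034W), the GATA repressor of these genes, stood at -0.13 on bas1 replicate 1, 0.38 on bas2 replicate 1, -0.02 on gcn4 and -0.75 on shm2, against -0.80 and -0.06 in BY4741. Its value of 6.82 on bas1 replicate 2 was the highest of all 71 values and rested on 1 spot. On the other 6 arrays it stayed between -0.80 and 0.38.

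CAR1 (YPL111W), arginase, was the steadiest gene above the middle. It stood at 1.33 and 0.97 in bas1, 1.24 and 0.81 in bas2, -0.28 on gcn4 and 0.87 on shm2, against 0.29 and 0.70 in BY4741. It was above 0 on 7 of 8 arrays, as were 14.4% of the 3168 genes measured on every array, and it was also above 0 on 7 without centring. Its spots were at most 0.13 apart on any array. The means were 1.15 ± 0.29 in bas1, 1.02 ± 0.29 in bas2 and 0.50 ± 0.29 in BY4741 (SE of the pooled fit, n = 2 each). Their limma adjusted p-values were 0.281, 0.780 and 0.849. With both bas1 arrays turned in sign, the bas1 mean would be -1.15.

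CAR2 (YLR438W), ornithine transaminase, acts on the ornithine that arginase releases. It stood at 0.97 and 0.19 in bas1, -0.12 and -0.37 in bas2, -0.68 on gcn4 and -0.57 on shm2, against -0.34 and 0.19 in BY4741. Both bas1 values lay above both bas2 values, with a difference of 0.82 (95% confidence interval -0.36 to 2.01, limma adjusted p = 0.914). At CAR1 the bas1 and bas2 values overlapped, and the difference was 0.13 (95% confidence interval -0.93 to 1.18). With the sign of the bas1 arrays turned these differences would be -0.33 and -2.17.

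DAL1, DAL4, DAL2, DCG1, DAL7 and DAL3 lie next to each other on 1 chromosome in this order, with YVH1 and MGA2 on either side (order from the RefSeq gene table, assembly R64). Neighbours within this run did not share their values. DCG1, a gene of unknown role inside the cluster, stood at -0.11 on bas1 replicate 1, 0.58 on bas2 replicate 1, -0.28 on gcn4 and -0.51 on shm2, against 0.89 and 0.51 in BY4741. On BY4741 replicate 1 it was therefore above 0 between DAL2 at -1.11 and DAL7 at -1.59. DAL4, which lies between DAL1 and DAL2, was at -0.09 on that array.

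**Figure D3:**
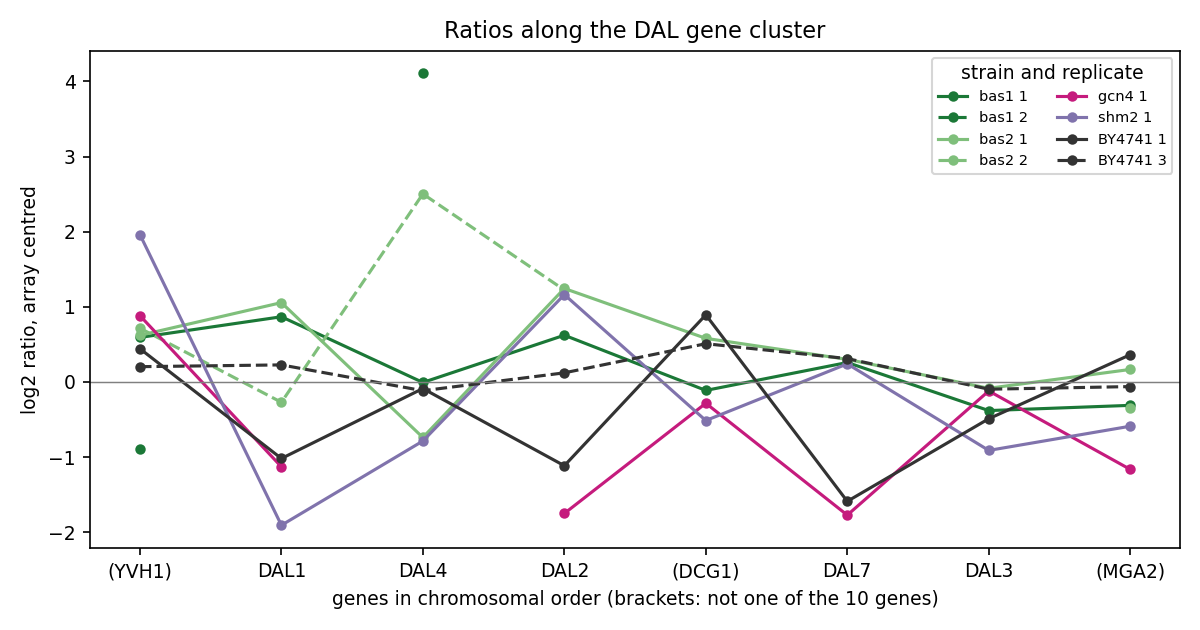
Centred log2 ratio (vertical axis) of the genes of the DAL cluster and a neighbour on either side, in chromosomal order (horizontal axis), 1 line per array, broken where a gene had no value. On gcn4 and BY4741 replicate 1, DAL1, DAL2 and DAL7 lie at -1 or lower, while DCG1 lies at -0.28 and 0.89.

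No gene passed limma's test across all genes in any of 8 comparisons, so none of the 10 did (0 of 6 tested in bas1, 0 of 7 in bas2 and 0 of 10 in BY4741, against 0% of all genes in each). The test is a two-sided moderated test with Benjamini-Hochberg adjustment at 0.05, and the labels do not tell whether the replicates are separate cultures, so its p-values measure only the spread between these arrays. At an unadjusted p under 0.05 stood CAR1 in bas1 (1 of 6, against 16.9% of all genes), CAR1 and DAL2 in bas2 (2 of 7, against 5.55%) and DUR3 in BY4741 (1 of 10, against 3.37%). At 1 or higher on both arrays stood 0 of 6 genes in bas1 (3.69% of all genes), DAL2 alone of 7 in bas2 (1.23%) and 0 of 10 in BY4741 (0.363%). At -1 or lower on both arrays there were 0 in bas1, bas2 and BY4741, against 3.25%, 1.33% and 0.708%. On the single gcn4 array 4 of 8 genes were at -1 or lower (16.4% of all genes) and 0 at 1 or higher (13.2%). On the single shm2 array 1 of 10 was at -1 or lower (7.62%), DAL1 with its discordant spots, and 1 at 1 or higher (5.72%), DAL2.

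Set against BY4741, the bas1 ratios were higher on every array for CAR1, DAL4 and DAL5, which are 3 of the 6 genes tested, against 31.4% of all genes. None was lower on every array (22.4%), and 0 of 6 were at an unadjusted p under 0.05 (14.4%). The differences were 0.65 ± 0.42 for CAR1, 2.15 ± 1.65 for DAL4 and 1.49 ± 1.08 for DAL5 (SE), with limma adjusted p-values of 0.421, 0.472 and 0.454. Without bas1 replicate 2 the differences of DAL4 and DAL5 were 0.095 and 0.37. Without centring the CAR1 difference was -0.12, and with the sign of the bas1 arrays turned it was -1.65. DAL80 had the largest difference, 3.78 ± 2.42, which fell to 0.30 without bas1 replicate 2.

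In bas2 the ratios were higher than in BY4741 on every array for CAR1, DAL2, DAL5 and DUR3, 4 of the 7 genes tested against 19.8% of all genes, and lower for none (20.8%). DAL2 had the largest difference, 1.73 ± 0.58 (95% confidence interval 0.16 to 3.30), with an unadjusted p of 0.0371, reached by 1 of 7 genes and 1.85% of all genes, and an adjusted p of 0.846. DUR3 differed by 0.92 ± 0.59, DAL5 by 1.36 ± 1.08 and CAR1 by 0.52 ± 0.42, the last at -0.033 without centring. Without bas2 replicate 2 the DAL5 difference was 0.15, without BY4741 replicate 1 the DUR3 difference was 0.22, and without bas2 replicate 1 that of CAR1 was 0.31. Without bas2 replicate 1 the DAL2 difference was 1.72, with bas2 then resting on 1 spot. Without BY4741 replicate 1 it was 1.11, and without centring 1.17.

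On gcn4, CAR1, CAR2, DAL1, DAL2, DAL7 and DUR3 lay below both BY4741 arrays, 6 of 8 genes against 33.7% of all genes, and DAL80 lay above both (1 of 8 against 29.4%). DUR3 had the largest difference, -1.66 ± 0.73 (SE, 1 gcn4 array, limma adjusted p = 1.00), and 0 of 8 genes were at an unadjusted p under 0.05 (3.49% of all genes). On shm2, CAR1, DAL2, DAL5 and DUR3 lay above both BY4741 arrays, 4 of 10 genes against 36.6%, and CAR2, DAL1, DAL3 and DAL4 lay below both, 4 of 10 against 36.7%. DUR3 differed by 1.87 ± 0.73 (unadjusted p = 0.0477, reached by 1 of 10 genes and 3.79% of all genes) and DAL2 by 1.66 ± 0.71, both with a limma adjusted p of 1.00. Without BY4741 replicate 1 these shm2 differences were 1.17 for DUR3 and 1.04 for DAL2, and the gcn4 difference of DUR3 was -2.36, or -0.96 without BY4741 replicate 3. The comparisons of the 4 deletion strains share the BY4741 arrays, and the single gcn4 and shm2 arrays were assumed to vary like the replicated strains. Between bas1 and bas2, CAR2 alone of 5 genes was higher on both bas1 arrays (18.6% of all genes) and none was lower (19.7%), with 0 of 5 at an unadjusted p under 0.05 (2.3%).

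**Figure D4:**
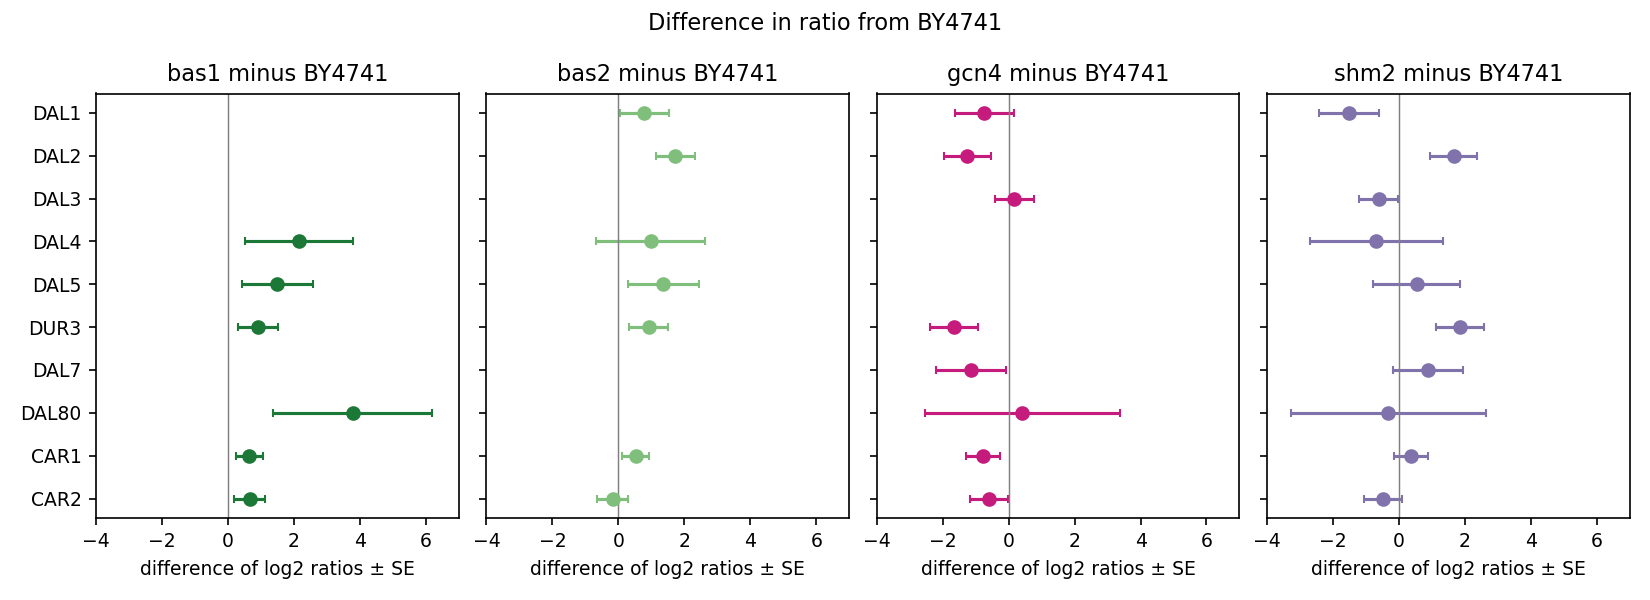
Difference in centred log2 ratio from BY4741 (horizontal axis, point ± SE of the limma fit) for each gene (rows) in bas1, bas2, gcn4 and shm2 (panels). Genes without a value on every array of the strains compared have no point, and the error bars of DAL80, DAL4 and DAL5 are the widest.

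The other genes of nitrogen use were read from lists of regulators, uptake genes, breakdown genes and regulators of arginine genes. None passed limma's adjusted threshold. Among 11 uptake genes, 8 were above 0 on both bas1 arrays (35.7% of all genes) and 8 of 9 on both bas2 arrays (31.4%), against 1 of 11 on both BY4741 arrays (32.1%). With both bas1 arrays turned in sign, those 8 would be below 0 on both. At 1 or higher on both bas1 arrays as deposited stood 5 of the 11 (3.69% of all genes), namely MEP1, MEP2, CAN1, DIP5 and AGP1. MEP2, an ammonium permease, was at 1.56 and 1.82 in bas1, 1.61 and 1.14 in bas2, -0.70 on gcn4 and 0.65 on shm2, against -2.07 and 0.36 in BY4741. DIP5, a permease of acidic amino acids, was at 1.83 and 4.61 in bas1, 1.39 and 1.91 in bas2, 0.21 on gcn4 and 0.23 on shm2, against -0.64 and 0.89 in BY4741.

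MEP1, another ammonium permease, stood at 1.52 and 1.25 in bas1 and 1.34 and 0.71 in bas2, against -1.33 and 0.69 in BY4741. CAN1, the arginine permease, stood at 1.35 and 1.31 in bas1 and 0.71 and 0.29 in bas2, against -1.41 and -0.22 in BY4741. AGP1, a broad amino acid permease, stood at 1.16 and 1.53 in bas1 and 1.17 and 0.89 in bas2, against -1.36 and 0.22 in BY4741. Like DUR3, these permeases had their lowest value in BY4741 on replicate 1, and MEP1, CAN1 and AGP1 stood at -1.14, -0.89 and -0.97 on gcn4. The permease gene UGA4 stood at -3.77 on gcn4. It was at -0.74 and 6.45 in bas1, -0.44 on bas2 replicate 1 and 0.17 on shm2, against 0.37 and -0.72 in BY4741. OPT2, another permease gene, stood at -1.09 on gcn4. It was at -2.81 and -0.28 in bas1, -2.06 and -0.09 in bas2 and 0.16 on shm2, against -0.35 and -1.22 in BY4741. PUT4, the proline permease, was at -1.37 and -4.10 in bas1. It was at -1.46 on bas2 replicate 1, -3.24 on gcn4 and -0.80 on shm2, against -1.75 and -0.57 in BY4741.

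Of 7 breakdown genes, 4 stood at -1 or lower on gcn4, against 16.4% of all genes. PUT1 and PUT2 of proline use were at -1.95 and -2.06 there, and UGA2 of GABA use at -1.08. GDH2, the NAD-dependent glutamate dehydrogenase, was at -1.35. PUT2, UGA2 and GDH2, 3 of the 7, were at -1 or lower on both gcn4 and BY4741 replicate 1 (6.25% of all genes). In BY4741 these 3 stood at -1.02, -1.68 and -1.01 on replicate 1 and -0.41, 0.02 and -0.41 on replicate 3. On shm2 PUT1 stood at 1.60, against 0.03 and 0.02 in BY4741. The aminotransferase gene UGA1 was at -1.19 on shm2, against -0.95 and -0.25 in BY4741. The activator gene PUT3 was at -1.71 on shm2, against 0.15 and -0.17. The regulators split. On gcn4, 3 of 5 with a value were at 1 or higher (13.2% of all genes), GLN3, GZF3 and URE2 at 1.84, 1.30 and 1.04. In BY4741, GZF3 and URE2 were at 2.28 and 1.31 on replicate 1 but 0.11 and 0.03 on replicate 3. GLN3 was at -0.66 and -0.34 there. On bas1 replicate 2, GLN3 was at 6.05, GAT1 at -1.93 and URE2 at -1.85, against -0.005, -0.26 and -0.36 on bas1 replicate 1. GAT1 was at -0.49 on gcn4, against -1.22 and -0.43 in BY4741. Of the 5 regulators of arginine genes, ARG81 alone reached 1 in size on an array of a strain, at -1.34 on gcn4. DAL81 and DAL82, activators of the DAL genes, stayed within 0.45 of the middle gene wherever they had a value. DUR1,2, the urea amidolyase gene, was not analysed here.

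**Figure D5:**
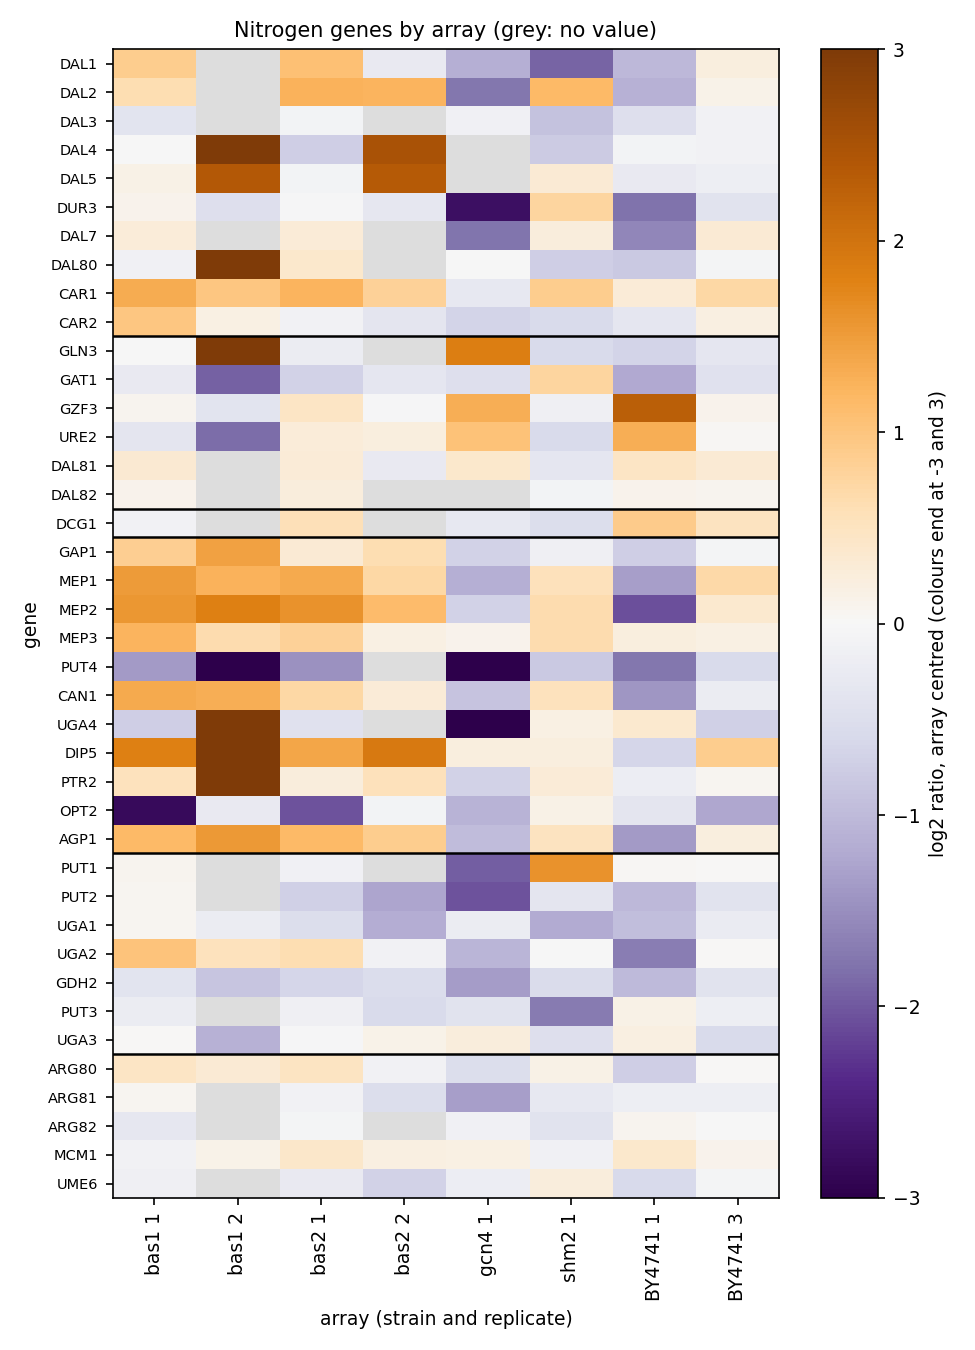
Centred log2 ratio as colour for the 10 genes (top block) and, below, the regulators, DCG1, the uptake genes, the breakdown genes and the regulators of arginine genes (rows) on each array (columns), grey where there was no value and with colours ending at -3 and 3. MEP1, MEP2, CAN1 and AGP1 are above 0 on all bas1 and bas2 arrays and below -0.7 on gcn4 and BY4741 replicate 1.

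The genes outside the 10 whose values over the 8 arrays were most like the group's median profile were TPO5, STL1, AIM26, SAC6 and GAT4, at Pearson r = 0.97, 0.97, 0.95, 0.95 and 0.94. The measure divided each array by its median absolute deviation and was taken over the 3165 other genes measured on all of them. STL1, a glycerol transporter, stood at -0.08 and 4.68 in bas1, 0.07 and 2.60 in bas2, -2.11 on gcn4 and -0.23 on shm2, against -1.10 and 0.16 in BY4741. The scaled group median was highest on bas1 replicate 2 and bas2 replicate 2, at 1.42 and 1.16, and lay between -0.96 and 0.31 on the other arrays. On bas1 replicate 2 and bas2 replicate 2 only 6 and 7 of the 10 genes had a value.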

How the data were processed

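The deposited values were log2 channel ratios per spot from 8 two-colour spotted arrays. The labels name a GenePix 4000B scanner and GenePix Pro 3.0 software. The sources used here do not give dyes, background handling, spot filters or normalization. Of 12800 spots, 11138 had 1 gene symbol, 0 several and 1662 none, and 11128 were named through RefSeq. Spots were averaged per gene and each array was centred on its median gene, which had stood between -0.78 and 0.65. Strain means and differences were fitted with limma 3.58.1 in R 4.3.3 over all 8 arrays, with at most 3 residual degrees of freedom and no other term, on genes with a value on every array of the strains compared. The code was tested on simulated data. Precision is limited by how few arrays there are, and signal over background is unknown.

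The 10 genes and all lists were chosen with earlier results of these data known. The text names the 10 genes, GCV1, GCV2, GCV3 and SHM2 as checks, and the deleted genes BAS1, PHO2 and GCN4. It also names list genes at 1 or more in size on every array of a strain, and the 5 genes most like the median profile. MLS1, YVH1, MGA2 and DCG1 on single arrays were named outside that rule, as were list genes that stand beside others of their list. No sequence or promoter motif was analysed here. Alternatives were no centring, a common median absolute deviation, stricter filters on missing genes and spots, turned bas1 signs, the replicate number as a block and leaving out each replicate.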

Additional observations from a re-analysis of the deposited data

Results flagged for a closer look

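Among the 5 fitted strain differences, 5 cases had 1 sign on every array of a strain and the opposite sign on every array of the other, and limma called none of them. Other strain pairs, such as gcn4 and bas1, were not fitted and are not counted. The cases were 1 of 6 genes in bas1 against BY4741 (22.1% of all genes), 0 of 7 in bas2 (12.5%), 1 of 8 in gcn4 (10.6%), 2 of 10 in shm2 (28.9%) and 1 of 5 in bas1 against bas2 (8.37%). DAL5 was above 0 on both bas1 arrays and below 0 on both BY4741 arrays, a difference of 1.49 (adjusted p = 0.454) that was 0.37 without bas1 replicate 2. DAL5 was also above 0 on the shm2 array, a difference from BY4741 of 0.54 (adjusted p = 1.00). DUR3 was above 0 on shm2 and below 0 on both BY4741 arrays, a difference of 1.87 (adjusted p = 1.00). CAR1 was below 0 on gcn4 and above 0 on both BY4741 arrays, a difference of -0.78 (adjusted p = 1.00). CAR2 was above 0 on both bas1 arrays and below 0 on both bas2 arrays, a difference of 0.82 (adjusted p = 0.914) that was 0.43 without bas1 replicate 1. Groups of 1 or 2 arrays are too small for a check of single arrays that lie far from the others.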

How the results depend on the processing

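Counts of genes past limma's test were 0 in all 8 comparisons, and alternatives gave a gene count other than 0 in 5 cases. Without centring 1 gene passed in bas1. With both bas1 arrays turned in sign 2 genes passed between bas1 and bas2. Leaving out 1 replicate gave between 0 and 641 genes in bas1, 0 and 493 between bas1 and BY4741 and 0 and 158 between bas1 and bas2, the upper values without bas1 replicate 1, when bas1 rested on its widest array alone. There DAL80 passed, at 6.82 in bas1 (adjusted p = 0.00832) and 7.25 against BY4741 (adjusted p = 0.0173), on 1 spot. Of the recomputed values of single genes, 582 kept direction and side of the threshold and 62 changed sign, none of the 62 past the threshold. Many of the 582 could not change direction, so their number does not measure stability. Turned bas1 signs or a left-out array do not alter the values of other strains, and the stricter filters keep the fitted values. The group median in BY4741 was 0.14 without centring, against -0.34 with it, and in bas1 -1.21 with turned signs, against 1.21. Leaving out a replicate moved it between 0.20 and 1.68 in bas1, 0.13 and 0.81 in bas2 and -0.64 and 0.03 in BY4741. In bas1 and bas2 the genes with a value also differed between the replicates.

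Without centring the BY4741 values of DAL1, DAL3, DAL4, DAL5, DAL80 and CAR2 were 0.090, 0.19, 0.38, 0.26, 0.056 and 0.41. CAR1 and CAR2 in bas1 minus BY4741 were -0.12 and -0.11, CAR1 in bas2 minus BY4741 -0.033, DAL3 and DAL80 in gcn4 minus BY4741 -0.57 and -0.34, DAL5 and CAR1 in shm2 minus BY4741 -0.074 and -0.25, and DAL5 and CAR1 in bas1 minus bas2 -0.080 and -0.084. With a common median absolute deviation CAR2 in BY4741 was 0.11, CAR1 in bas1 minus BY4741 -0.12, and DAL5, DUR3 and CAR1 in bas1 minus bas2 -0.30, 0.094 and -0.43. The cause of these sign changes was not tested beyond the shift or scaling itself.

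With both bas1 arrays turned in sign, DAL4, DAL5, DAL80, DUR3, CAR1 and CAR2 in bas1 were -2.05, -1.26, -3.35, 0.19, -1.15 and -0.58. Against BY4741, DAL4, DAL5, DAL80, CAR1 and CAR2 were -1.95, -1.04, -2.92, -1.65 and -0.50, and against bas2, DAL4, DAL5, DUR3, CAR1 and CAR2 were -2.93, -2.40, 0.38, -2.17 and -0.33.

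Leaving out a replicate moved bas1 values between -0.0067 and 4.11 for DAL4, -0.13 and 6.82 for DAL80 and -0.48 and 0.10 for DUR3. In bas2 they ran between -0.27 and 1.06 for DAL1, -0.74 and 2.50 for DAL4 and -0.078 and 2.35 for DAL5, and in BY4741 between -1.02 and 0.23 for DAL1, -1.11 and 0.12 for DAL2, -1.59 and 0.31 for DAL7 and -0.34 and 0.19 for CAR2. Differences from BY4741 ran between -0.64 and 2.60 for DAL4 and -0.43 and 0.10 for CAR2 in bas2, -0.023 and 0.37 for DAL3 in gcn4, and -0.070 and 1.83 for DAL7 and -0.69 and 0.049 for DAL80 in shm2. Between bas1 and bas2 they ran between -0.89 and 3.22 for DAL4, -1.08 and 1.34 for DAL5, -0.30 and 0.28 for DUR3 and -0.087 and 0.34 for CAR1.

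With the replicate number as a block (replicate block) the fit kept at most 1 residual degree of freedom. In the 5 differences 0 genes passed, a count that says little with so few degrees of freedom. Only BY4741 has a replicate 3, so in this fit the differences from BY4741 rest on its replicate 1. The signs of DAL4 (-0.87) and CAR2 (0.36) in bas2 minus BY4741 and of DAL80 (0.049) in shm2 minus BY4741 turned. The deviations of same-numbered bas1 and bas2 arrays correlated at r = 0.54 over 3260 genes. These are only 2 pairs. Their titles are also worded alike, with 'GLY-SteadyST' for replicate 1 of bas1, bas2 and BY4741. The gcn4 title has 'Gly steady'. The titles of bas1 and bas2 replicate 2 end in 'ss', as do those of shm2 and BY4741 replicate 3. The labels do not say what this wording marks. The stricter filters on missing genes and spots keep the fitted values and so could change no sign.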

Other observations

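Over the 41 pairs of the 10 genes with values on at least 6 arrays, 28 had a positive Pearson r after each array was divided by its median absolute deviation, with a median of 0.25 and a range from -0.70 to 0.95. The highest was that of DAL7 and CAR1 (0.95, 6 arrays), and DAL2 with DUR3 (0.86), DAL4 with DAL5 (0.86) and DAL1 with DAL80 (0.86) followed. The lowest was that of DAL3 and DUR3 (-0.70, 6 arrays). The points of each pair share their arrays, so these values describe the arrays as much as the genes. Pairs of other genes were not computed, so how usual such values are on these arrays is not known.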
